A study of Sus scrofa with 4 samples.

Results

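The loci of 9 histone lysine methyltransferase genes were examined for open chromatin in porcine fetal fibroblasts: KMT2A, KMT2B, KMT2C, KMT2D, KMT2E, SETD1A, SETD1B, SETD2 and DOT1L. A locus was the RefSeq gene model (Sscrofa11.1) with 10 kb on both sides, and every called ATAC-seq peak that overlapped it was taken. The 9 loci held 66 of 96367 peaks in BRG1 1, 64 of 90851 in BRG1 4, 72 of 107475 in control 1 and 72 of 105954 in control 4. Where peaks of the 4 libraries overlapped they were merged into union regions, of which the 9 loci held 78 of the 121788 in the series. In ATAC-seq the Tn5 transposase cuts accessible DNA, and a peak marks an interval with more cuts than its surroundings. The BRG1 libraries came from cells with the genotype BRG1-overexpressed, made with pTK-642-BRG1. The control libraries came from WT cells with pTK-642. All 4 libraries were of the fibroblast line PFFs from skin after serum starvation, and the study used such cells as donors for nuclear transfer to ask how BRG1, the catalytic subunit of BAF-type chromatin remodellers, bears on chromatin openness. The promoter of the vector, whether the lines were single clones and the age of the fetuses are not stated in the labels. The labels do not tie the libraries of a group to separate cultures, so the p-values measure only the spread between these libraries, which may be technical.

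Methylation of histone H3 at lysine 4, lysine 36 and lysine 79 marks transcribed genes. KMT2A to KMT2D, SETD1A and SETD1B work in COMPASS-type complexes on lysine 4. In mammals SETD1A and SETD1B account for much of the trimethylation at active promoters, KMT2A and KMT2B act at subsets of promoters, and KMT2C and KMT2D place monomethylation at enhancers. SETD2 travels with elongating RNA polymerase II and trimethylates lysine 36 in gene bodies, and DOT1L, which has no SET domain, methylates lysine 79. KMT2E carries a SET domain for which no histone methyltransferase activity is established. A peak shows that DNA was accessible and measures neither the transcript nor the mark.

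Across the series, the lists covered 48.4 Mb in BRG1 1, 55.6 Mb in BRG1 4, 53.6 Mb in control 1 and 51.7 Mb in control 4, and median peak width was 404 bp in BRG1 1, 541 bp in BRG1 4, 403 bp in control 1 and 396 bp in control 4. BRG1 4 therefore had the fewest and the widest peaks. Absolute depth is unknown. The lowest background in each list, which moves with depth, was 81.2% of that of control 1 in BRG1 1, 92.7% in BRG1 4 and 93.7% in control 4, so BRG1 4 and control 4 were close in this measure, while list length differed between the groups; the part of either in the results below was not tested. Of 12 fibroblast markers, 10 had a peak within 1 kb of a gene end in all 4 libraries. FN1 had one in BRG1 1 alone and DCN, a defining marker, had none. None of 4 keratinocyte markers had one, against 1 of 4 endothelial, 2 of 4 muscle, 2 of 5 melanocyte and glia and 2 of 4 immune markers. The over-expressed gene, SMARCA4, held 6 peaks in BRG1 1, 6 in BRG1 4, 6 in control 1 and 7 in control 4, which does not measure its expression.

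Open chromatin at the 9 loci was largely the same set of sites in both groups. A peak was called in all 4 libraries at 52 of the 78 regions (66.7%), against 61.8% of all union regions. Only 1 region was BRG1-only, that is called in both BRG1 libraries and in neither control library, against a series share of 0.741%. Another 3 were control-only, against 4.41% in the series. With 3 libraries these rules are easier to meet. BRG1-only regions then numbered 5 without BRG1 1 (4.44% in the series), 3 without BRG1 4 (3.38%), 2 without control 1 (2.08%) and 2 without control 4 (1.87%). Control-only regions numbered 7 without BRG1 1 (13217 of 119436 in the series), 4 without BRG1 4 (7.42%), 6 without control 1 (9.98%) and 7 without control 4 (10.6%). The remaining 22 of the full comparison followed neither pattern, and 13 of the 78 regions were called in a single library. KMT2B with 4 of 4 regions and DOT1L with 8 of 8 had every region in all 4 libraries, while KMT2D had 3 of 7.

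**Figure D1:**
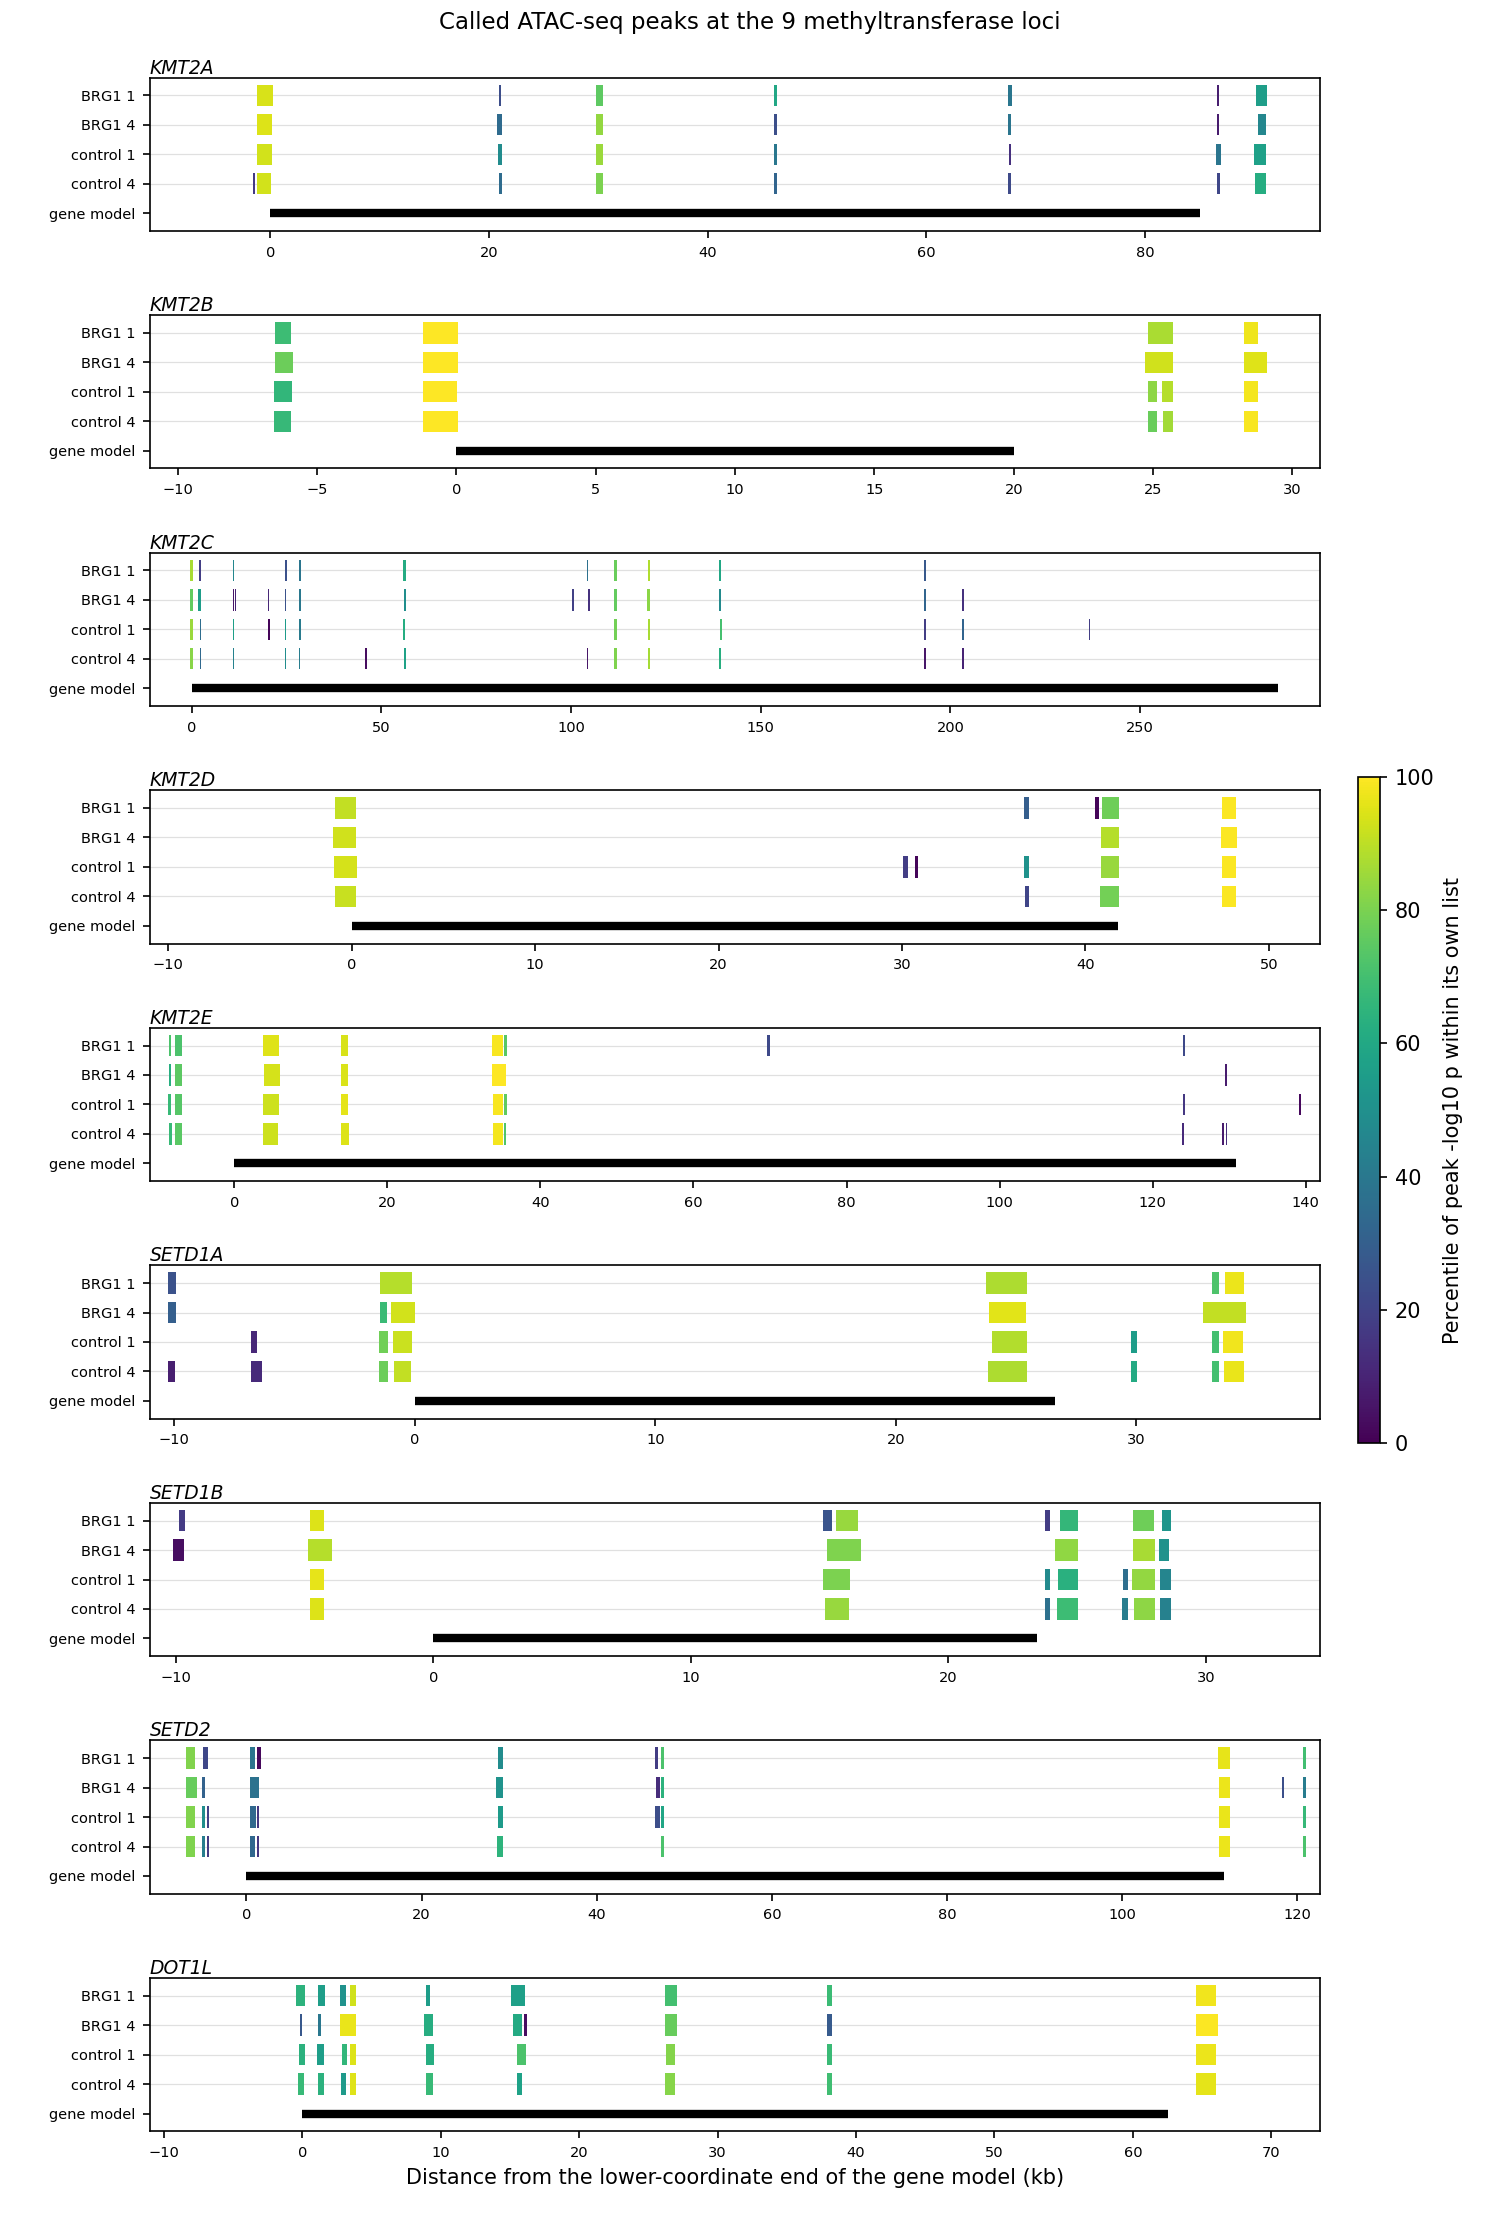
Peaks of each library (rows) at each locus against distance from the lower-coordinate end of the gene model in kb, with the gene model as a black bar. Colour gives the percentile of the peak's −log10 p within its own list, and the narrowest peaks are drawn slightly wider than scale to be seen; most peaks line up across the 4 libraries, and the brightest sit at gene ends, neighbouring genes and a few sites within genes.

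The strength of a peak is given below as the percentile of its −log10 p within its own list, where 100 is the strongest peak of that list. Regions shared by all 4 libraries had a median percentile of 72.0, against 60.6 for such regions of the whole series. Regions called in 3, 2 and 1 libraries had medians of 20.0, 11.6 and 14.4, against 22.2, 15.0 and 9.71 in the series. Regions not called everywhere were therefore mostly weak, as in the whole series. Their median width was 369.5, 318.0 and 230.0 bp for 3, 2 and 1 libraries, against 860.5 bp for the shared regions.

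A peak within 1 kb of an end of the gene was called in all 4 libraries at 8 of the 9 genes, against 68.2% of 19550 protein-coding genes. KMT2E was the exception and had none in any library. By position, 10 of 11 gene-end regions, 26 of 43 regions in gene bodies and 16 of 24 regions in the flanks were shared by all 4 libraries. The gene table gives no strand, so the end that holds the transcription start, and exonic, intronic or UTR positions, were not assigned.

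KMT2A and KMT2B, the MLL-type enzymes that bind menin, both had their strongest region at the lower-coordinate end. KMT2A (gene ID 100623006) lies on chromosome 9 from 45743566 to 45828559 and held 7 peaks in BRG1 1, 7 in BRG1 4, 7 in control 1 and 8 in control 4. Its end region, from 45742319 to 45743853, stood at percentiles of 93.8 and 94.7 in BRG1 1 and BRG1 4, and 93.3 in each control library, with the same summit base in all 4. The strongest site inside the gene, from 45773338 to 45774007, lay 30.1 kb from that end. It stood at 75.2 and 83.9 in the BRG1 libraries and 84.8 and 80.3 in the control libraries, so the groups overlapped. One of the regions inside the TTC36 model, from 45830082 to 45830464, measured 223 and 202 bp in BRG1 1 and BRG1 4, against 383 and 334 bp in control 1 and control 4, and had the lowest length ratio of all 52 shared regions, 0.593.

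KMT2B (gene ID 100520742) lies on chromosome 6 from 45146863 to 45166854. Its end region, from 45145645 to 45146910, was among the strongest of the genome, at 99.7 and 99.9 in BRG1 1 and BRG1 4 and 99.9 in each control library. The pileup that the deposited fold and p-value imply at its summit was 505 and 578 tags in the BRG1 libraries, and 638 and 607 tags in the control libraries. The zinc finger gene ZBTB32 ends in the same region, so the peak cannot be given to one gene. No peak lay farther inside the KMT2B model in any library, and its other regions sat in the flanks. One of these, from 45171582 to 45172592 at the end of the gamma-secretase subunit gene PSENEN, was 1 peak in each BRG1 library and 2 peaks in each control library. The same open interval thus gave 4 peaks in BRG1 1, 4 in BRG1 4, 5 in control 1 and 5 in control 4 for the locus. The region at the end of LIN37, a subunit of the DREAM repressor, was strong in all 4 libraries, at 97.5 and 95.2 in BRG1 and 98.4 and 98.9 in control.

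KMT2C and KMT2D, the paralogous enhancer-type enzymes, differed in layout. KMT2C (gene ID 100514805), the longest model with 286 kb on chromosome 18 from 4993213 to 5279668, held 11 peaks in BRG1 1, 15 in BRG1 4, 13 in control 1 and 13 in control 4, which overlap. All but 1 of its 18 regions lay in the gene body. The strongest, from 5113346 to 5114096, lay 121 kb from the lower-coordinate end and stood at 87.9 and 82.8 in the BRG1 libraries, against 87.0 and 86.6 in the control libraries. It exceeded the gene-end region, which stood at 86.9 and 76.1 in BRG1 and 85.0 and 82.2 in control, in every library. Of the 8 regions of KMT2C that were not shared by all, 5 were called in a single library, 3 of these in BRG1 4.

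KMT2D (gene ID 110260656) lies on chromosome 5 from 15049827 to 15091622 and held 5 peaks in BRG1 1, 3 in BRG1 4, 6 in control 1 and 4 in control 4. It had regions at both ends. The lower one, shared with the end of the AMPK subunit gene PRKAG1, stood at 90.8 and 92.6 in BRG1 and 93.6 and 91.6 in control. The higher one stood at 77.9 and 88.7 in BRG1 and 84.4 and 78.8 in control. The strongest region of the locus belonged to neither end: from 15097204 to 15098120, at the end of RHEBL1, a small GTPase related to RHEB, it reached 99.6 and 99.6 in BRG1 and 99.6 and 99.4 in control. The other 4 KMT2D regions were narrow, lay in the gene body and were called in 3 libraries or 1.

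At KMT2E (gene ID 100628131, chromosome 9, 104876301 to 105007161) the strongest sites lay inside the gene, and none lay at its annotated ends. It held 8 peaks in BRG1 1, 6 in BRG1 4, 8 in control 1 and 9 in control 4. The region from 104910006 to 104911941, 34.7 kb from the lower-coordinate end, stood at 98.9 and 99.9 in BRG1 and 99.1 and 98.3 in control. Its summit pileup was 441 and 640 tags in the BRG1 libraries, and 520 and 433 tags in the control libraries. The region from 104880088 to 104882228 was the broadest of the 9 loci, with 1997 and 2058 bp under peaks in BRG1, and 2033 and 1985 bp in control, wider than 99.9% of peaks in each list. An uncharacterised gene model, LOC106504991, lies within KMT2E and overlaps the first of these regions. Shared regions also lay in the flank, from 104867711 to 104868120 and from 104868551 to 104869542, with mean percentiles of 67.2 and 73.6 over the 4 libraries. Its 5 regions not shared by all libraries were narrow, and 3 of them were called in a single library.

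SETD1A and SETD1B, the catalytic subunits of the SET1 complexes, held all 4 regions that separated the groups. SETD1A (gene ID 100511747, chromosome 3, 17463768 to 17490397) had 5 peaks in BRG1 1, 5 in BRG1 4, 7 in control 1 and 8 in control 4. Its end region, from 17462280 to 17463802, which also holds the end of the bile acid enzyme gene HSD3B7, stood at 89.0 and 93.1 in BRG1, and 91.9 and 90.8 in control. A second strong region in the gene body, from 17487511 to 17489218, was at 87.8 and 95.7 in BRG1, and 88.4 and 87.6 in control. Both sites of the gene itself were therefore open in every library.

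Of the control-only regions of SETD1A, the stronger lay in a neighbouring gene. This region, from 17493531 to 17493802 inside the calcium channel gene ORAI3, stood at 55.2 in control 1 and 60.7 in control 4, with a pileup of 95 and 103 tags over a local background of 26.0 and 25.1. By mean percentile it ranked 3 of the 5376 control-only regions of the series, of which 20 exceeded 50. The ORAI3 region stayed control-only with lists held to equal length and at a −log10 q of at least 5.

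SETD1B (gene ID 100156137, chromosome 14, 30862155 to 30885592) held 8 peaks in BRG1 1, 6 in BRG1 4, 7 in control 1 and 7 in control 4. Its region in the gene body, from 30877297 to 30878764, stood at 84.6 and 80.7 in BRG1, and 80.3 and 84.5 in control. At the higher-coordinate end, shared with the gene RHOF, the percentiles were 66.4 and 83.5 in BRG1, and 63.4 and 68.7 in control. The strongest region of the locus was that at the end of HPD, an enzyme of tyrosine breakdown, at 94.7 and 88.9 in BRG1, and 96.3 and 94.8 in control.

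The BRG1-only region of SETD1B, from 30852050 to 30852525 inside HPD, was weak, at 17.4 in BRG1 1 and 3.7 in BRG1 4, with 14 and 11 tags. It ranked 555 of the 903 BRG1-only regions of the series, and at a −log10 q of at least 5 it was left in BRG1 1 only. The control-only region, from 30888903 to 30889138 inside RHOF, stood at 35.6 in control 1 and 41.8 in control 4, with 70 and 74 tags. A region shared by all 4 libraries began 148 bp away. None of the 43 regions in the gene bodies and the 11 at the ends of the 9 genes was BRG1-only or control-only. Over all union regions of the series, 0.741% were BRG1-only and 4.41% control-only. At such shares, few or none would be found among so few regions.

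**Figure D2:**
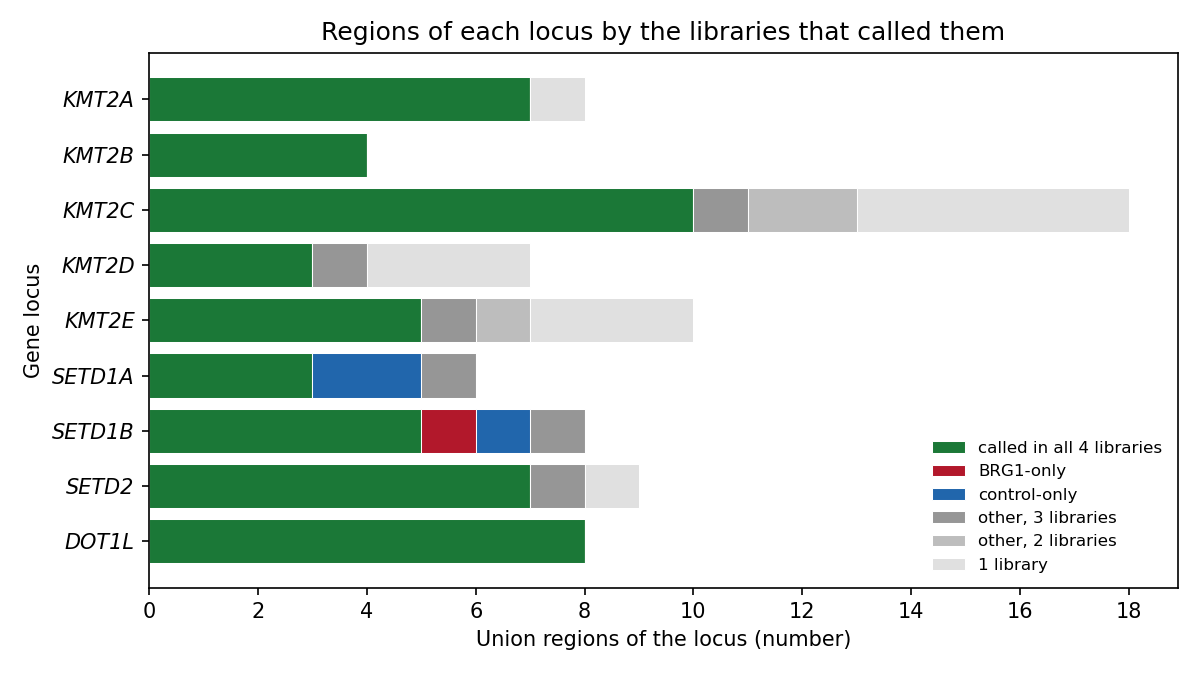
Number of union regions at each locus, stacked by the libraries that called them. SETD1A and SETD1B hold the 1 BRG1-only and 3 control-only regions, and every region of KMT2B and DOT1L was called in all 4 libraries.

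SETD2 (gene ID 100623101), the lysine 36 methyltransferase, lies on chromosome 13 from 29884708 to 29996285 and held 9 peaks in BRG1 1, 9 in BRG1 4, 10 in control 1 and 9 in control 4. Its ends differed in strength. The region at the higher-coordinate end, from 29995654 to 29997042, stood at 96.4 and 97.2 in BRG1, and 96.8 and 96.9 in control. That at the lower-coordinate end, from 29885081 to 29886343, stood at 38.8 and 37.7 in BRG1, and 33.4 and 33.2 in control. Between them the gene body held 3 regions, the strongest at 71.5 and 64.4 in BRG1, and 59.1 and 71.7 in control. A flanking region inside NBEAL2, from 29877786 to 29879049, stood at 81.0 and 76.6 in BRG1, and 81.1 and 80.6 in control.

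DOT1L (gene ID 100738665), the lysine 79 methyltransferase, lies on chromosome 2 from 76339452 to 76401974 and held 9 peaks in every library. Its lower-coordinate end carried a modest region, at 64.2 and 27.0 in BRG1, and 63.8 and 67.5 in control, so BRG1 4 stood apart from the other 3 libraries. In BRG1 4 that peak was 200 bp long, against 616 bp in BRG1 1, 448 bp in control 1 and 484 bp in control 4. A stronger region, from 76342152 to 76343329, lay 3.29 kb inside the gene, at 92.8 and 96.6 in BRG1, and 94.8 and 95.1 in control. The strongest region of the locus was at the end of the splicing factor gene SF3A2, at 97.8 and 99.5 in BRG1, and 97.2 and 95.9 in control.

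Summed over the 9 loci, peaks numbered 65.0 ± 1.41 in BRG1 and 72.0 ± 0 in control (SD, n = 2 each), a ratio of 0.903. The same ratio over the whole lists was 0.877. With lists held to equal length the ratio over the loci was 0.985. Part of the difference lay in regions open in every library: the 52 shared regions held 57 and 54 peaks in BRG1, and 59 and 59 in control, a difference of -3.5 between the group means. Uneven numbers of peaks were seen in 9 shared regions, among them the PSENEN region and a region inside NBEAL2 at SETD2, each 1 peak in both BRG1 libraries and 2 in both control libraries.

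Fewer peaks in both BRG1 libraries than in both control libraries were found at KMT2B and SETD1A, 2 of the 9 loci, against 15.0% of all protein-coding loci and 19.3% of loci in the members' length range. More peaks in both BRG1 libraries were found at 0 of 9, against 1.24%. The exact permutation p was 0.33 for KMT2B and SETD1A, the smallest that 2 against 2 libraries allow, and the Benjamini-Hochberg adjusted p over 19550 loci was 1 for each of the 9. At both loci the difference lay in the flanks: within the gene models alone the count of such loci was 0, and the SETD1A difference was 0.5 peaks, against -2.5 with the flanks. With lists of equal length the count was again 2 of 9, and the shares of all loci were 5.53% with fewer and 4.84% with more peaks. With 1 library left out the criterion is easier to meet. The count was 5 of 9 without BRG1 1, against 31.1% of all loci, and 3 without BRG1 4, against 21.6%. It was 4 without control 1, against 25.4%, and 4 without control 4, against 26.6%.

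Length under peaks went the other way. The loci held 42.6 kb in BRG1 1 and 46.3 kb in BRG1 4, against 42.5 kb in control 1 and 41.9 kb in control 4, a ratio of 1.05 that compares with 0.989 for the whole lists. BRG1 1 lay next to control 1, and without BRG1 4 the ratio was 1.01. The mean length per peak was 646 and 723 bp in BRG1, and 591 and 582 bp in control. More length in both BRG1 libraries than in both control libraries was seen at 4 of 9 loci, against 14.1% of all loci and 13.1% of those in the members' length range, and less length at 0 of 9, against 13.5%. Without BRG1 1 the count of loci with more length was 6 of 9, against 51.7% of all loci. Without BRG1 4 it was 5 of 9, against 18.8%, and it was 4 of 9 without control 1, against 30.8%, and without control 4, against 22.4%. DOT1L had 5951 and 5890 bp in BRG1, and 5382 and 5117 bp in control. KMT2B had 3235 and 3757 bp in BRG1, and 3052 and 3068 bp in control. The other loci of this kind were SETD1B with a ratio of 1.11 and SETD2 with 1.09. At DOT1L the summed lengths of the BRG1 libraries lay close to each other and apart from both control libraries. Single regions there could differ, with 616 bp in BRG1 1 and 200 bp in BRG1 4 at the lower-coordinate end. Base-pair overlap (Jaccard index) at DOT1L was 0.713 for BRG1 1 with BRG1 4, 0.758 with control 1 and 0.789 with control 4. The exact permutation p was 0.33 at each of the 4 loci, and the adjusted p over all loci was 1.

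**Figure D3:**
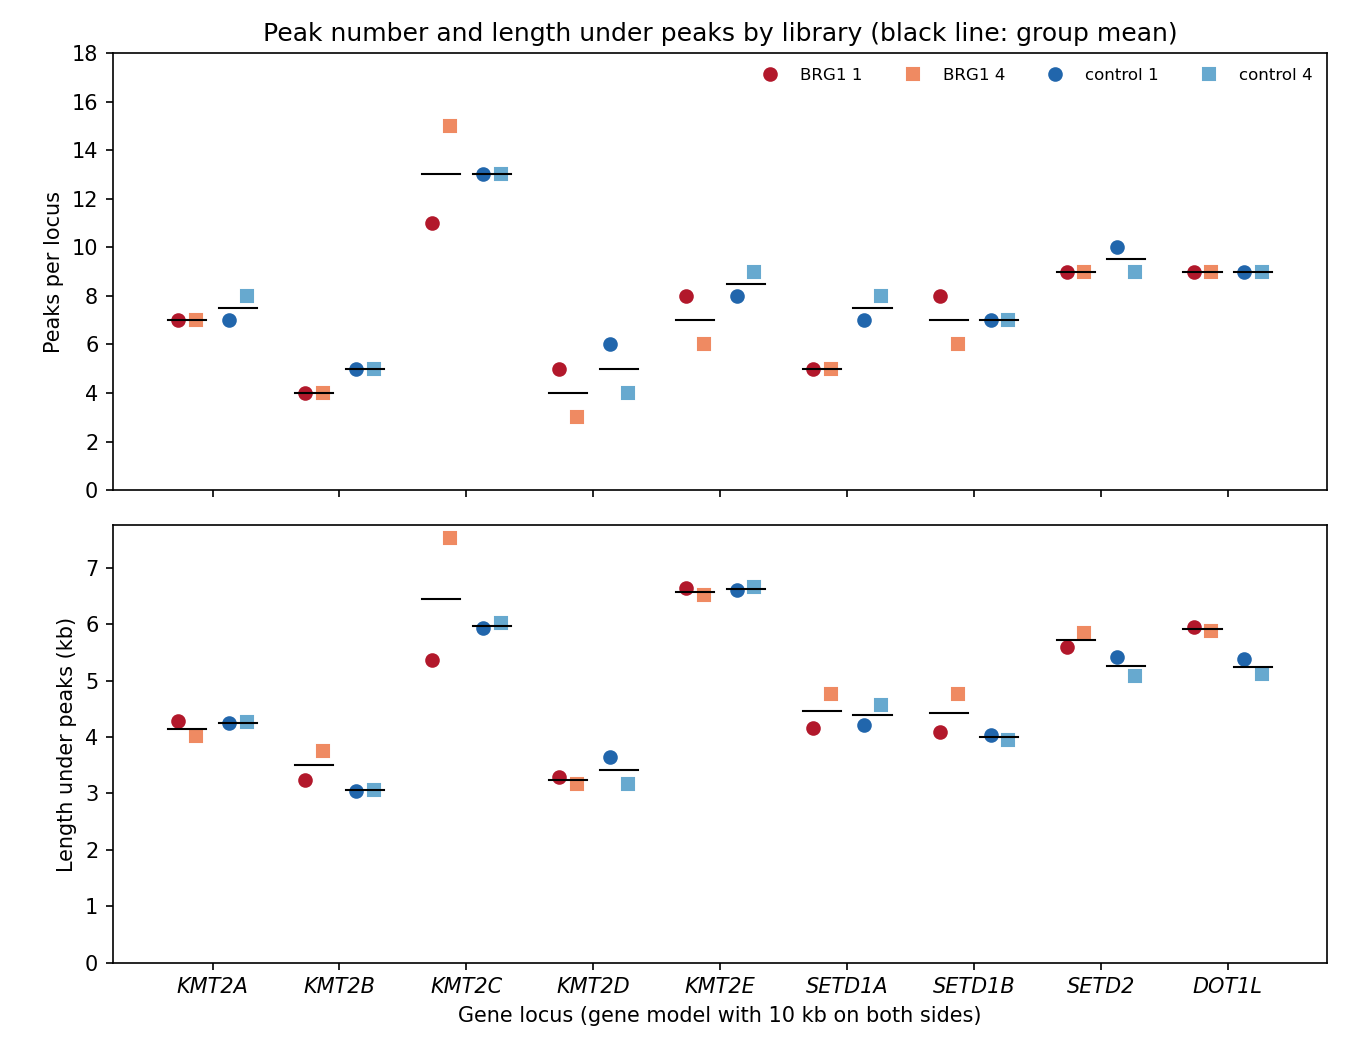
Number of peaks and length under peaks at each locus, one point per library, with BRG1 libraries to the left of control libraries. Peak numbers separate the groups at KMT2B and SETD1A, and lengths at KMT2B, SETD1B, SETD2 and DOT1L, with small gaps at several of them.

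Length under peaks was followed to single regions, as the sum over the peaks that a library held there. A region split into 2 peaks thus loses the gap between them. Of the 52 regions shared by all 4 libraries, 17 had more length under peaks in both BRG1 libraries than in both control libraries (32.7%), against 18.9% of the shared regions of the series. In the opposite direction there were 6 (11.5%), against 14.3%. The groups overlapped at the other 29. Most of the 9 shared regions with uneven numbers of peaks were among the 17 longer ones. These were the PSENEN region, the SETD1A gene end, the lower-coordinate end of SETD2, and regions in the gene bodies of KMT2E, SETD1B and DOT1L. At the other uneven regions, in the flanks of SETD1A and SETD2, the groups overlapped. The part of such splits in the lengths was not tested. The median ratio was 1.05, against 1.03 in the series, and BRG1 4 was the longest library at 26 of 52 regions in the loci, against 51.8% of such regions in the series. Longer regions occurred at every gene but KMT2D: 4 at KMT2C, 3 at DOT1L, 2 each at KMT2A, KMT2B, SETD1B and SETD2, and 1 each at KMT2E and SETD1A. With 1 library left out the number of shared regions changed too. Longer and shorter regions numbered 33 and 14 of 54 without BRG1 1, and 23 and 17 of 59 without BRG1 4. The counts were 25 and 11 of 53 without control 1, and 21 and 11 of 53 without control 4. The series share of longer regions was then 55.1% without BRG1 1, 26.1% without BRG1 4, 35.0% without control 1 and 29.8% without control 4. For shorter regions the series share was not run with a library left out. Shorter regions in the full comparison were 2 at KMT2A, 2 at KMT2C, 1 at KMT2E and 1 at SETD1B.

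The largest ratio among these was 1.86, at a region in the DOT1L gene body from 76354532 to 76355689. Length under peaks there was 1046 bp in BRG1 1 and 858 bp in BRG1 4, against 625 bp in control 1 and 401 bp in control 4. BRG1 4 held the region as 2 peaks, the stronger of 653 bp, and each other library as 1 peak. The pileup at its strongest summit was 31 and 31 tags in BRG1, and 48 and 31 tags in control, so more length did not come with a higher summit. A second DOT1L region, from 76365651 to 76366542, measured 879 and 880 bp in BRG1, and 650 and 704 bp in control, with 46 and 50 tags in BRG1, and 73 and 78 tags in control. At the SETD1A gene end the lengths were 1307 and 1321 bp in BRG1, and 1122 and 1067 bp in control. That region was 1 peak in BRG1 1 and 2 peaks in each other library. Tags are not scaled for depth, and the lowest background relative to control 1 was 81.2% in BRG1 1, 92.7% in BRG1 4 and 93.7% in control 4.

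**Figure D4:**
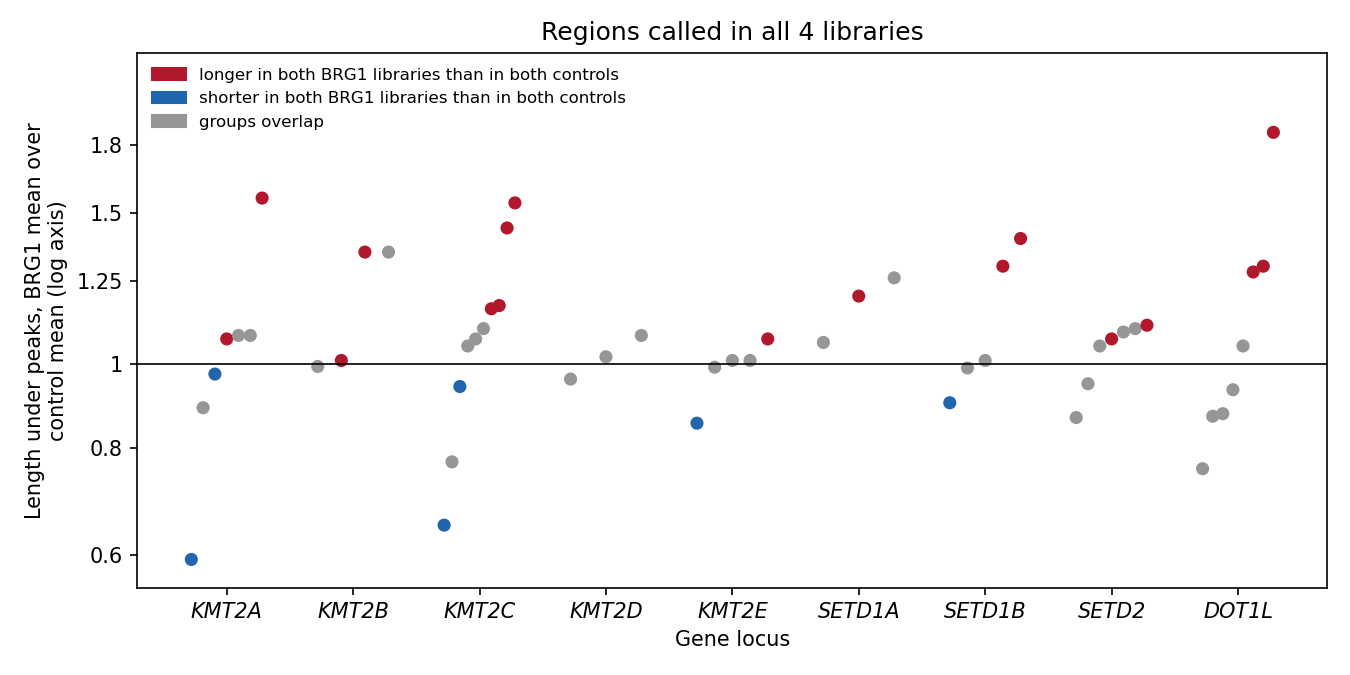
Length under peaks at the 52 regions called in all 4 libraries, as the BRG1 mean over the control mean, by gene; the colour marks regions where both BRG1 libraries lie above, or both below, both control libraries. Ratios run between 0.593 at a KMT2A flank region and 1.86 in the DOT1L gene body, with 17 regions longer and 6 shorter in both BRG1 libraries.

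Summit positions were compared next. At 43 shared regions with 1 peak in each library, the summits of the 4 libraries spread over a median of 37 bp and at most 663 bp, and 24 of the 43 lay within 50 bp. Base-pair overlap, as the Jaccard index over the 9 loci, was 0.734 between the BRG1 libraries and 0.833 between the control libraries. Pairs across the groups gave 0.785 and 0.786 for BRG1 1 with control 1 and control 4, and 0.721 for BRG1 4 with either. BRG1 1 thus overlapped the control libraries more than it overlapped BRG1 4, and in the series the matching values were 0.663 within BRG1, 0.736 within control, and 0.652 to 0.719 across. By gene, the BRG1 pair ran between 0.60 at KMT2C and 0.854 at KMT2B.

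Peak density was compared per length. The 9 loci had a median of 7.28 peaks per 100 kb, between 4.24 at KMT2C and 16.1 at SETD1B, against 6.64 for all protein-coding loci, and 7 of 9 exceeded that value. Peaks covered a median of 5.38% of a locus, against 3.9% in the series, with 8 of 9 above it. The order by percentile of density was SETD1B at 91.9, SETD1A at 84.8, KMT2B at 77.1, DOT1L at 75.6, KMT2D at 54.7, SETD2 at 52.9, KMT2A at 51.9, KMT2E at 38.9 and KMT2C at 31.5. The short gene models stood first and the longest last. A flank of fixed length, with its neighbouring genes, makes up more of a short locus, and its part in this order was not tested.

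Partners of these enzymes and other listed methyltransferase genes were examined in the same way. Of 40 listed genes 37 matched the gene table, and 34 of these (91.9%) carried gene-end peaks in every library, against 68.2% of all genes. All 15 COMPASS partners did. Among them were WDR5, RBBP5, ASH2L and DPY30, which form the core shared by KMT2A to KMT2D, SETD1A and SETD1B. MLLT3, a subunit of the DOT1L complex, had one in BRG1 4 only. SMYD1, a muscle methyltransferase, and SUPT6H, an elongation factor of RNA polymerase II, had none.

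Peak number was lower in both BRG1 libraries than in both control libraries at 9 of the 37 loci, higher at 0, and overlapping at 28. Of all loci, 15.0% were lower and 1.24% higher. The lower share was 19.3% among loci in the length range of the 9 members, and a share matched to the listed genes' lengths was not run. The exact permutation p at such a locus is again 0.33. Other methyltransferases gave 5 of the 9. NSD3, a lysine 36 enzyme, had 14 and 12 peaks in BRG1, and 17 and 17 in control. NSD2, of the same family, had 6 and 6 in BRG1, and 8 and 8 in control. ASH1L, a lysine 36 enzyme of the Trithorax group, had 7 and 9 in BRG1, and 12 and 10 in control, and SMYD3 had 11 and 14 in BRG1, and 15 and 18 in control. The fifth was SETD3. COMPASS partners gave 3 of 15, namely HCFC1, HCFC2 and KDM6A, the lysine 27 demethylase of the KMT2C and KMT2D complexes, which had 5 and 4 in BRG1, and 6 and 6 in control. MLLT3 gave the ninth, and no SETD2 partner was among them. With lists of equal length the count was 4 of 37, against 5.53% of all loci. With 1 library less to meet the criterion it was 16 without BRG1 1, against 31.1%, and 13 without BRG1 4, against 21.6%. It was 10 without control 1, against 25.4%, and 16 without control 4, against 26.6%.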

How the data were processed

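ATAC-seq peak lists of 4 libraries, 2 BRG1 and 2 control, were used. FastQC, BWA, Bowtie, SAMtools and MACS2, without versions, and the build Sscrofa11.1 are named per the submitters' processing notes; caller settings and read shifting for Tn5, each not given in the sources used here, can change peak number and width. The authors deposited 1 list per library, so peaks were not pooled. The deposited fold is a ratio of summit pileup to local background; the −log10 p and −log10 q were deposited as the caller gave them, and a p-value was used for ranks, and the lowest −log10 q was 1.31 to 1.35; the deposited score is a whole-number form of the latter. These values were used only within their own list. Depth per library is unknown; a whole summit pileup could be recovered from fold and p-value at all 274 peaks of the loci (tolerance 0.01), with 9 to 640 tags, and no counting interval is given.

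Peaks were merged into union regions at an overlap of at least 1 bp. Loci were gene models of RefSeq (19550 protein-coding) with 10 kb flanks. Loci were tested with two-sided exact permutation tests and Benjamini-Hochberg adjustment over all loci, and sums over the chosen genes were not tested. The genes and lists were chosen with earlier results of these data known. Text names the 9 genes, their strongest and gene-end regions, the strongest shared region away from the ends, the BRG1-only and control-only regions (1 of which is counted but not reported here), and list genes without a gene-end peak in all libraries; single regions named for their length, and the list genes named for their peak number, were chosen after their values were seen. Planned results on gene starts and promoter motifs were replaced by gene ends, because the reference table holds neither strand nor sequence. Alternatives were lists of equal length (90851 peaks), a −log10 q of at least 5, overlap of 50%, other flanks and gene-end windows, a replicate block and leaving out each library. Python 3.11.15, numpy 2.4.6, pandas 2.3.3 and scipy 1.17.1 were used, and the procedures were tested on simulated data.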

Additional observations from a re-analysis of the deposited data

How the results depend on the processing

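Lists of equal length (the 90851 strongest peaks of each) brought the peak ratio over the 9 loci to 0.985. BRG1-only regions of the loci then numbered 2, against 2.04% of union regions in the series. Control-only regions also numbered 2, against 2.04%, so the excess of control-only regions was not seen with these lists. Fewer or more peaks in both BRG1 libraries were found at 1082 and 946 loci of the genome (5.53% and 4.84%). Of the partner list, 4 of 37 loci had fewer peaks. KMT2E then had a difference of 0.5 peaks in place of -1.5. At a −log10 q of at least 5 there were 0 BRG1-only regions, against 0.697% in the series, and 3 control-only regions, against 4.42%. With gene models and no flank the peak ratio was 0.978, BRG1-only and control-only regions numbered 0 and 0, loci with fewer peaks 0, and SETD1A differed by 0.5 peaks; with flanks of 5 kb BRG1-only regions numbered 0 and loci with fewer peaks 1. Series shares were not run with these flanks. Apart from the shorter lists and windows themselves, the cause was not tested. Leaving out 1 library gave peak ratios of 0.889 to 0.917, length ratios of 1.01 to 1.1, 2 to 5 BRG1-only and 4 to 7 control-only regions, 3 to 5 loci with fewer peaks (4229 to 6071 of the genome), 710 to 1174 loci of the genome with more peaks, 3666 to 10110 with more length, 21 to 33 longer and 11 to 17 shorter shared regions (longer share in the series 26.1 to 55.1%), and 10 to 16 partner loci with fewer and 1 to 3 with more peaks. Of the 9 loci, the count of regions in all libraries, of genes with gene-end peaks and of loci with more length moved by at most 1.5 times under the settings run. The counts of the 9 loci with fewer peaks, and the alternatives for loci counted by length or within the partner list, and for shared region length, were added after seeing the data. Libraries share the numbers 1 and 4 only as numbers: deviations of same-numbered libraries correlated at -0.01 over all union regions, and with the number as a replicate block the ratios were 0.903 for peak number and 1.05 for length, as without it. Results on gene starts and promoter motifs were not run. Unknown depth limits what a missing peak can show.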
